A study of Mus musculus with 12 samples.

Results

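Photoreceptor identity in the mouse retina depends on a small set of transcription factors, and 10 of them were followed here: Otx2, Crx, Rorb, Neurod1, Prdm1, Nrl, Nr2e3, Mef2d, Samd7 and Thrb. They were chosen by gene symbol, as 10 of the 25124 genes listed in each of the 2 expression tables of the study. The study asked how the retina responds to a mild rise of intraocular pressure (IOP) in young and old animals, by bulk poly(A) RNA-seq of whole retina. All 12 libraries came from wildtype C57BL/6 mice. In each mouse 1 eye was held at 30 mmHg for 1 h by hydrostatic pressure, and the contralateral eye was left untreated as the control. In the single-IOP experiment retinas were taken at day 2 from 3-month-old animals (3mo control and 3mo IOP) and 18-month-old animals (18mo control and 18mo IOP). In the repeated experiment the elevation was given biweekly, 4 times in total, to mice aged 3 months when it began (4xIOP), and retinas were taken at day 2 after the 4th, with the contralateral eyes as 4xIOP control. Each of the 6 groups had 2 libraries. The labels do not say which control and IOP libraries came from the same animal, and p-values measure the spread between these libraries. The control eye belonged to an animal whose other eye was treated, so no retina of a wholly untreated animal entered a comparison.

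Photoreceptor precursors are specified by the homeodomain factor OTX2, which turns on its relative CRX, the activator of most rod and cone phototransduction genes. RORB and PRDM1 act in the same early step, RORB upstream of Nrl and PRDM1 by holding back the bipolar cell program. NRL, a basic leucine zipper factor, then commits a precursor to the rod fate and activates Nr2e3, whose product represses cone genes in rods, while the thyroid hormone receptor THRB directs cones to the green-sensitive opsin. MEF2D works together with CRX at photoreceptor enhancers, SAMD7 is a rod Polycomb protein that keeps other genes silent, and NEUROD1 is a basic helix-loop-helix factor that maintains photoreceptors. In the adult retina most of these genes stay on in photoreceptors, and Otx2, Neurod1 and Rorb are also used by other retinal neurons.

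The label of the tissue was met by its markers, as all 30 rod genes of a fixed list were above 0 in all 12 libraries. In the repeated table Rpph1, the RNA component of ribonuclease P, took the most exon reads (3.91% to 5.39% per library). Depth lay between 39766244 and 59455048 tags per library. In the 3mo control group, replicate 2 stood apart in its dependence on transcript length. The median FPKM of protein-coding transcripts shorter than 1000 bases, divided by that of transcripts with 4000 bases or more, came to 4.70 there, against 1.89 in replicate 1, 2.99 to 3.26 in 3mo IOP and 1.20 to 1.36 in the 4 libraries of the old animals. Transcript length therefore moved with age in these libraries, and the age differences with that trend removed are given after those of the single factors.

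All 10 factors passed the filter on low values in both tables (0.5 FPKM or more on average within the table). FPKM is the number of fragments per kilobase of transcript, scaled to the tags of the library. It puts genes of a library on 1 scale, but the dependence on transcript length given above remains in such comparisons. Nrl and Crx were the most abundant factors, at 542.5 to 684.8 and 425 to 434 FPKM in the 3mo control retinas, and Prdm1 was the least abundant, at 1.85 to 2.51 FPKM. Over the 8 single-IOP libraries the mean level put Nrl at percentile 99.7 and Crx at percentile 99.6 of the 13731 tested genes, and Prdm1 at percentile 18.0. Between these lay Nr2e3 (188.5 to 291.9 FPKM over the 8 libraries), Neurod1 (111 to 312), Otx2 (69.4 to 117), Samd7 (39.4 to 104), Mef2d (27.8 to 92.8), Rorb (14.5 to 28.8) and Thrb (10.3 to 14.2). Prdm1 was last in all 12 libraries, with 343 to 646 reads in the single-IOP table and 188 to 308 in the repeated one, and every other factor had at least 1886 reads in every library. The spread over the single-IOP libraries was small for Thrb and Crx (SD of the log2 value 0.15 and 0.17, n = 8) and large for Mef2d and Nrl (0.62 and 0.56).

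**Figure D1:**
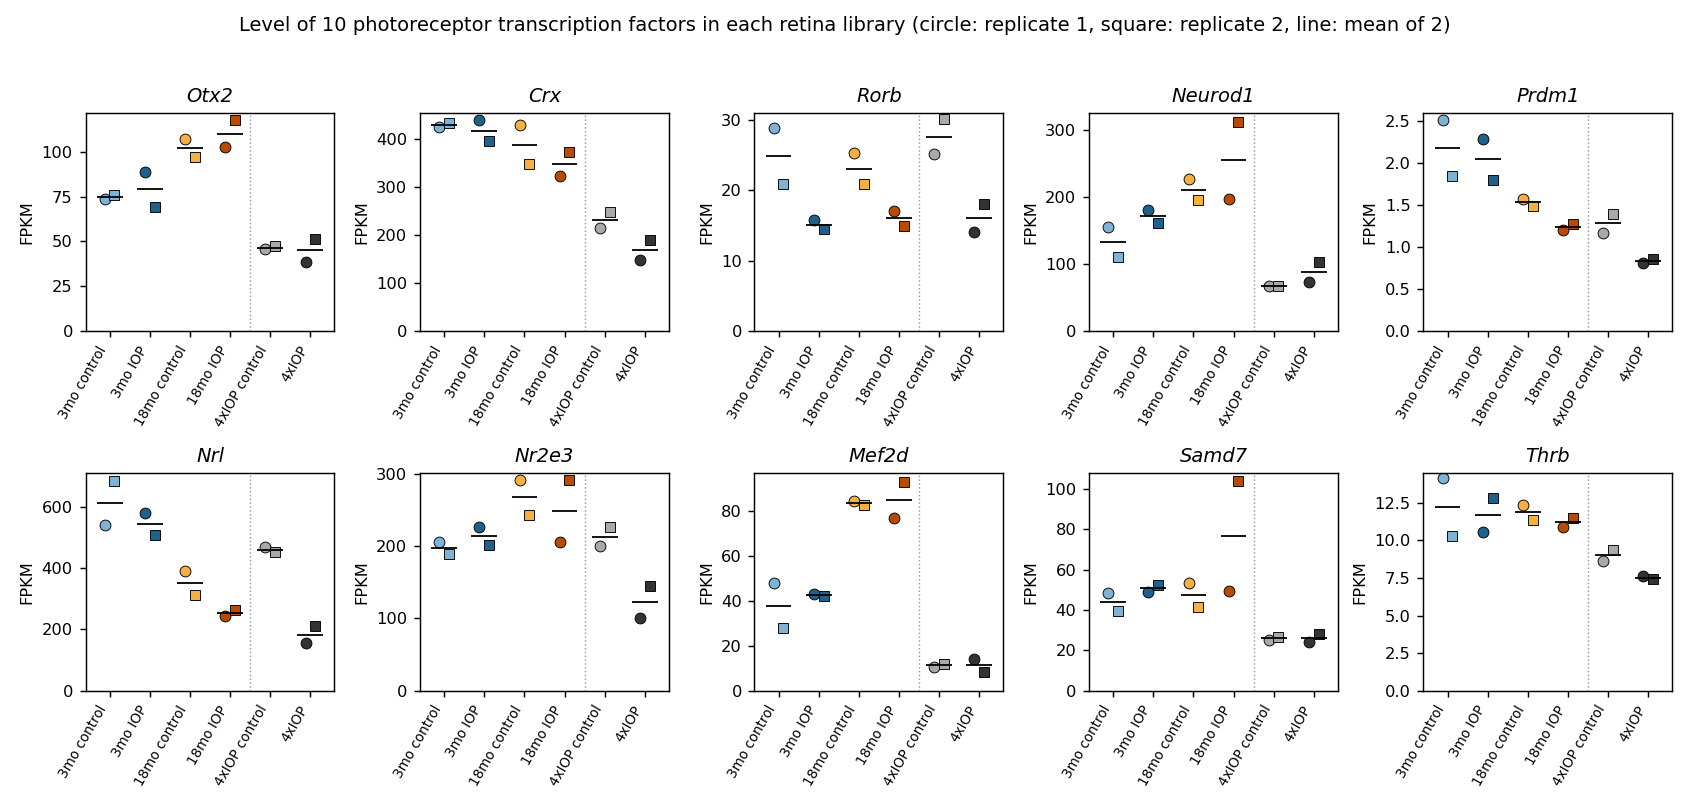
Level in FPKM of each factor (vertical axis from 0, own scale per panel) in the 12 retina libraries, by group on the horizontal axis; circles are replicate 1, squares replicate 2, and the line is the mean of 2. Left of the dotted line is the single-IOP table and right of it the repeated table, which were normalized separately. Nrl lies at 509 FPKM or more in the 4 young and at 391 or less in the 4 old retinas, Mef2d at 48.1 or less and 77.0 or more, and Rorb is lower in IOP than in control libraries in all 3 experiments.

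The positions of the counted transcripts in mm10 were chr14:48657677-48662734 for Otx2, chr7:15865947-15872385 for Crx, chr19:18930609-19001117 for Rorb, chr2:79452639-79456636 for Neurod1, chr10:44437174-44458748 for Prdm1, chr14:55518978-55524981 for Nrl and chr9:59942771-59950079 for Nr2e3, all on the minus strand, and chr3:88142372-88172091 for Mef2d, chr3:30746293-30767174 for Samd7 and chr14:17660960-18038088 for Thrb, on the plus strand. Exonic reads on the transcribed strand were counted. In the GENCODE annotation of mm10, exons of Neurod1 share 201 bases with Cerkl on the same strand, those of Otx2 168 bases with Gm49154 and those of Nr2e3 61 bases with Gm15507, so reads there cannot be assigned to either gene. For Rorb and Mef2d the tables hold different transcripts (8743 and 8795 bases for Rorb, 5413 and 5393 for Mef2d). The row of Thrb cannot separate its isoforms, which include the cone-specific one.

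The sequence before the start site was read for all 10 factors from RefSeq (GRCm38.p6, the assembly of mm10), as 250 bases upstream of each of 15 annotated starts. The search covered 3 motifs on both strands, whose matches did not overlap. TAATCC, the core site of CRX and OTX2, was found in 6.25% of all 32851 such windows. TGCTGA, a half-site of NRL, was found in 16.1%. AGGTCA, a half-site of nuclear receptors such as RORB and THRB, was found in 14.0%. Counted by gene, with a match before any of its starts, the shares over 27025 genes were 7.21%, 18.0% and 15.8%. The CRX and OTX2 site was present for 4 of the 10 factors. Crx itself carried it at 94 and 21 bases before its start, Samd7 at 139, Thrb at 46 and Otx2 at 211 before 1 of its 4 starts. The NRL half-site was present for 4 factors, at 229 bases before the start of Mef2d, at 50 and 44 for Neurod1, at 24 before another start of Otx2 and at 77 before the upstream start of Rorb. Thrb also had the nuclear receptor half-site, at 184 bases. The window of Nrl held none of these letters, but it lies within the counted transcript, which begins 729 bases upstream of that RefSeq start. The 4 windows printed here run 5′ to 3′ along the gene, with motif matches in capitals, and were picked for these reasons: Crx and Samd7 as 2 of the 4 factors with the CRX and OTX2 site (read there as GGATTA, its reverse complement), and Mef2d and Rorb because the results turn on them, the window of Rorb being the one at the start of the counted transcript, with no match.
Crx, chr7:15879956-15880205, minus strand: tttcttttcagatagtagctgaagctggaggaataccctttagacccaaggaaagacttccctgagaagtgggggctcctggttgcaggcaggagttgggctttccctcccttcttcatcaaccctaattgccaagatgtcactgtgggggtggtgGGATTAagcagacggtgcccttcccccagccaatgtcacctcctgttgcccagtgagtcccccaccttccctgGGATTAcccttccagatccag
Samd7, chr3:30746043-30746292, plus strand: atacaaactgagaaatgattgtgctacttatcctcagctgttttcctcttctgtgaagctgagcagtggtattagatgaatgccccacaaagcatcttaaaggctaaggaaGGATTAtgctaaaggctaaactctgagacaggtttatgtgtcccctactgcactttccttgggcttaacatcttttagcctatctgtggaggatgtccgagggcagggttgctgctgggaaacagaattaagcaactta
Mef2d, chr3:88142122-88142371, plus strand: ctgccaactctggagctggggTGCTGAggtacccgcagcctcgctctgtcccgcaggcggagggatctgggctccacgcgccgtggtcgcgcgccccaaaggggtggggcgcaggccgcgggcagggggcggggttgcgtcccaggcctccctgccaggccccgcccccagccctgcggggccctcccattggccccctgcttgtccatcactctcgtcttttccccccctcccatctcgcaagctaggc
Rorb, chr19:19001118-19001367, minus strand: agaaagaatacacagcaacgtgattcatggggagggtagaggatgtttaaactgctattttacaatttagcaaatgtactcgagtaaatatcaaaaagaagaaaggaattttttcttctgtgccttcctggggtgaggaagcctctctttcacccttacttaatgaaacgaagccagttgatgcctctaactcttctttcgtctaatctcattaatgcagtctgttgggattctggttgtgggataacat
These matches describe letters and were not tested for binding. The printed window of Crx precedes an annotated start that lies 7570 bases upstream of the start of its counted transcript.

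The question of the age comparison was which genes differ between young and old retinas. Values log2(FPKM + 0.5) were tested with limma over all 13731 genes, and a factor counts as called where its Benjamini-Hochberg adjusted p did not exceed 0.05 and its fold was 2 or more. Among untreated eyes, Mef2d rose with age and was the only one of the 10 factors called, where 23.2% of all tested genes were called in either direction and 11.6% were called higher. Nrl passed the adjusted p but not the 2-fold limit, so that 2 factors passed the adjusted p alone, where 45.9% of all genes did. The median difference of the 10 factors was 0.04 on the log2 scale, and that of all tested genes was 0.16. A shift of the whole distribution is part of these values. With median-of-ratios size factors the median of all genes fell to 0.01, so a log2 difference in this comparison is read relative to 0.16. In 6 of the 10 factors the 2 young and 2 old control libraries did not overlap (4 higher and 2 lower), where 78.5% of all genes did not overlap.

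MEF2D is a MADS-box factor of muscle, brain and photoreceptors. Mef2d had 48.1 and 27.8 FPKM in the 3mo control libraries and 84.7 and 82.5 FPKM in the 18mo control libraries. Both old retinas were above both young ones, and the young pair was far wider apart than the old pair. The difference was 1.18 on the log2 scale (SE 0.26), or 2.27-fold, with an adjusted p of 0.0105 (limma). In IOP eyes the young libraries had 42.9 and 42.35 FPKM and the old ones 77.0 and 92.8 FPKM, again without overlap. The log2 difference of 0.98 (SE 0.26, limma adjusted p = 0.0203) fell just short of 2-fold. The low young library was the one with the strong length dependence, and the counted Mef2d transcript is long. Without 3mo control replicate 2 the difference between controls was 0.79 (adjusted p = 0.0133), and after the trend with length had been taken out of every library it was 0.80 (adjusted p = 0.00832), below the 2-fold limit in both cases. It also lost the call, at an adjusted p of 0.0601 or 0.0620, without 18mo control replicate 1 or 2.

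Nrl was lower in old retinas. NRL is required for rods, and retinas that lack it make cone-like cells instead. Untreated eyes had 542.5 and 684.8 FPKM of Nrl at 3 months and 391 and 312 FPKM at 18 months. All old values were below all young ones, with a log2 difference of -0.80 (SE 0.25, 0.573-fold, limma adjusted p = 0.0339). In these control eyes the adjusted p was above 0.05 with quantile normalization (-0.22, adjusted p = 0.458), the replicate block (adjusted p = 0.144), no filter on low values (0.107), only the control groups in the fit (0.127) and any 1 of 3 libraries left out (0.0584 to 0.241). IOP eyes had 579.9 and 509 FPKM of Nrl at 3 months and 244 and 265 FPKM at 18 months. There it fell by 1.09 on the log2 scale (SE 0.25, 0.468-fold, limma adjusted p = 0.0142) and was the only factor called of the 10, where 21.8% of all genes were called. Counting every factor, 6 of 10 did not overlap between IOP eyes of the 2 ages (3 higher and 3 lower), where 77.7% of all genes did not. The call of Nrl was lost when any 1 of the 4 libraries was left out (log2 difference -1.19 to -1.0002, adjusted p 0.0540 to 0.0985), with quantile normalization (-0.49, adjusted p = 0.117) and with the replicate block (adjusted p = 0.0744). By mean level of Nrl the 3mo control group came first, followed by 3mo IOP, then 18mo control, then 18mo IOP, and only the first 2 overlapped.

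Crx and Nr2e3, which act just above and just below Nrl, did not pass the test with age. At 3 months Crx had 425 and 434 FPKM in control eyes and 439 and 396 after IOP. At 18 months it had 429 and 347 in control eyes and 323 and 373 after IOP. The control groups overlapped, and the difference of -0.15 (95% interval -0.70 to 0.40) did not pass the test, nor did that of -0.26 in IOP eyes (limma adjusted p = 0.390). Quantile normalization turned both signs, to 0.47 and 0.42. Nr2e3 had 206.4 and 188.5 FPKM in 3mo control against 291.9 and 243 in 18mo control, without overlap, and its difference of 0.43 had a limma adjusted p of 0.176. In IOP eyes Nr2e3 overlapped, with 226 and 202 FPKM at 3 months and 206.1 and 290.9 at 18 months, a difference of 0.20. With quantile normalization its differences were 0.99 and 0.87 (limma adjusted p = 0.0304 and 0.0478), below 2-fold.

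Otx2 and Neurod1 were higher in old than in young libraries in both kinds of eye, but neither passed the test. For Otx2, young retinas had 73.7 and 75.8 FPKM without and 88.7 and 69.4 with IOP, and old retinas had 107 and 97.0 without and 103 and 117 with IOP. The differences were 0.45 between controls and 0.48 between IOP eyes (limma adjusted p = 0.0957 and 0.0795). For Neurod1 the young values were 155 and 111 FPKM without and 181 and 161 with IOP, and the old values were 226 and 195 without and 196 and 312 with IOP. Its differences were 0.68 and 0.54 (limma adjusted p = 0.0814 and 0.156). Quantile normalization, which forces the same distribution on all libraries, brought both genes past the 2-fold limit and the adjusted p in both comparisons, at 1.03 to 1.28.

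The remaining factors did not pass the test with age as deposited. Prdm1 was lower in old libraries in both kinds of eye, with 2.51 and 1.85 against 1.58 and 1.497 FPKM in controls and 2.29 and 1.81 against 1.20 and 1.27 FPKM in IOP eyes (log2 differences -0.38 and -0.55, limma adjusted p = 0.1604 and 0.0657). With quantile normalization Prdm1 passed the adjusted p in both (-0.57 and -0.69, adjusted p = 0.0470 and 0.0256), below 2-fold. Rorb, Samd7 and Thrb overlapped between the ages in both kinds of eye. The 95% interval of the log2 difference between controls ran from -0.56 to 0.38 for Rorb, from -0.65 to 0.86 for Samd7 and from -0.48 to 0.43 for Thrb. With the trend with transcript length removed, 6 of the 10 factors passed the adjusted p alone in each age comparison, where 46.2% of all genes did between controls and 40.4% between IOP eyes. As deposited, 2 had passed it in each, where 45.9% and 42.6% of all genes did. The 6 were Nrl, Mef2d, Otx2, Rorb, Thrb and Prdm1. Rorb, near 0 as deposited (-0.09 in controls and 0.08 in IOP eyes), had log2 differences of -0.55 and -0.47 (adjusted p = 0.0256 and 0.0491), so its sign turned in IOP eyes. Thrb, at -0.03 and -0.06 as deposited, had -0.43 and -0.52 (adjusted p = 0.0261 and 0.0159). Prdm1 had -0.75 and -0.96 (adjusted p = 0.0135 and 0.00723), and Otx2 had 0.42 and 0.49 (adjusted p = 0.0433 and 0.0287). Mef2d went to 0.55 in IOP eyes (adjusted p = 0.0366), and Nrl to -0.93 and -1.19 (adjusted p = 0.00761 and 0.00452), so that Nrl in IOP eyes was the only factor past both limits with the trend removed.

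The 2 age comparisons share no library, but each shares control or IOP libraries with the single-IOP comparisons. Control eyes were the contralateral eyes of treated mice, so both age comparisons may rest on the same animals. They also used a shared estimate of the spread.

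**Figure D2:**
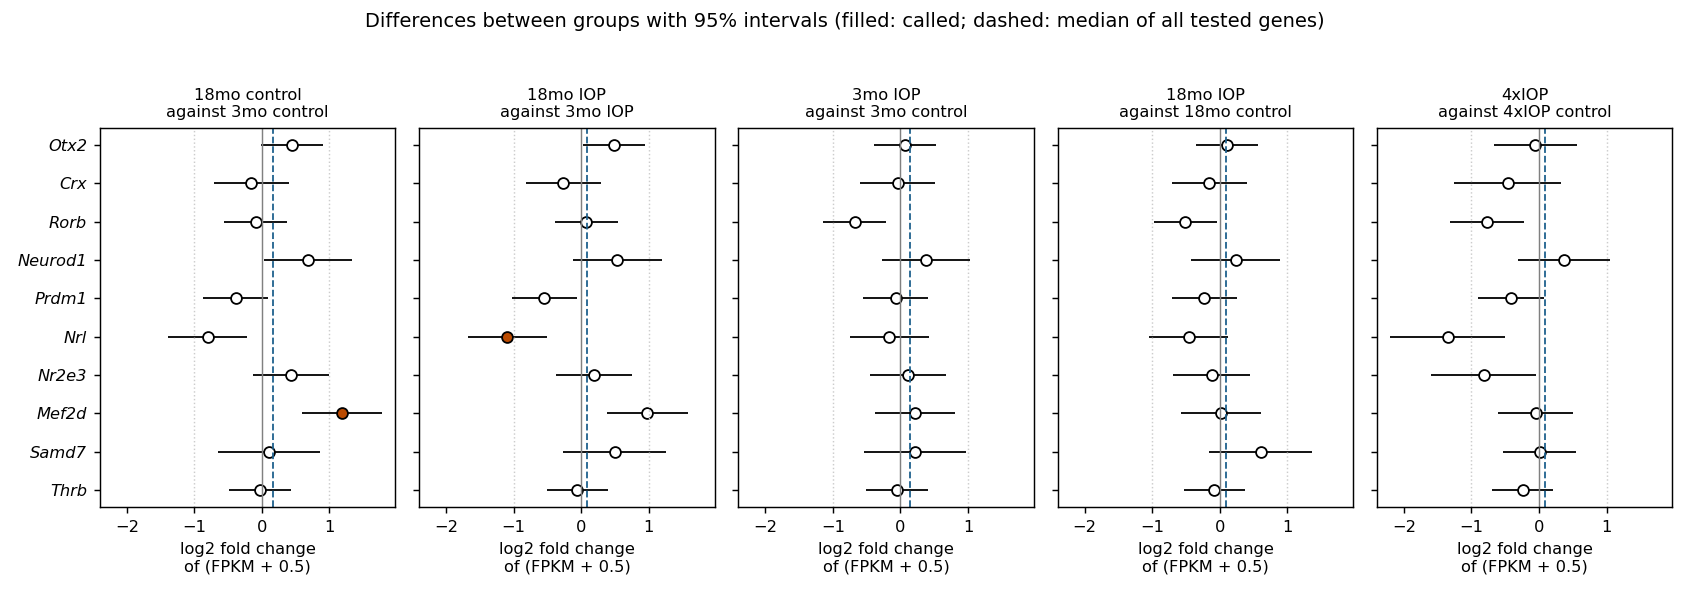
Log2 fold change of (FPKM + 0.5) on the horizontal axis for each factor (rows) in the 5 comparisons (panels), as points with 95% intervals from limma; filled points passed an adjusted p of 0.05 and a 2-fold change, the dashed line is the median of all tested genes, and dotted lines mark 2-fold. Filled are Mef2d at 1.18 between control retinas of the 2 ages and Nrl at -1.09 between IOP retinas of the 2 ages, while Nrl at -1.35 in the repeated experiment is not filled.

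The shares of the factors within a library gave a description that does not depend on a scaling factor between libraries. These ratios were chosen after the values had been seen. At 3 months the ratio of Nrl to Crx was 1.28 and 1.58 in control eyes and 1.32 and 1.29 after IOP. At 18 months it was 0.911 and 0.900 in control eyes and 0.755 and 0.710 after IOP. Nrl was thus above Crx in all 4 young retinas and below it in all 4 old ones. In the repeated table it was 2.19 and 1.82 in 4xIOP control and 1.05 and 1.11 in 4xIOP, so the treated eyes were lower but still above 1. Against the summed FPKM of 30 rod genes, Nrl lay between 9.30 and 11.7 FPKM per 1000 in all 8 single-IOP libraries, at 10.8 to 11.7 in the young and 9.30 to 11.4 in the old ones, and the ages overlapped. Crx per 1000 FPKM of rod genes was 6.99 to 9.16 in the young and 11.4 to 13.6 in the old libraries, and Nr2e3 was 3.04 to 4.45 and 8.0003 to 10.2. These ratios still move with transcript length. With the length trend removed, Nrl divided by Crx was 1.17 to 1.43 in the young and 0.656 to 0.851 in the old libraries, Crx per 1000 of rod genes was 10.8 to 11.97 and 12.1 to 14.8, and Nr2e3 was 3.37 to 4.48 and 7.49 to 9.501. Nrl per 1000 of rod genes was then 13.2 to 15.4 in the young and 9.51 to 11.4 in the old ones, without overlap. After repeated IOP, Nrl was lower against rod genes as well, at 16.2 and 14.9 against 24.3 and 22.5 FPKM per 1000 in the controls.

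**Figure D3:**
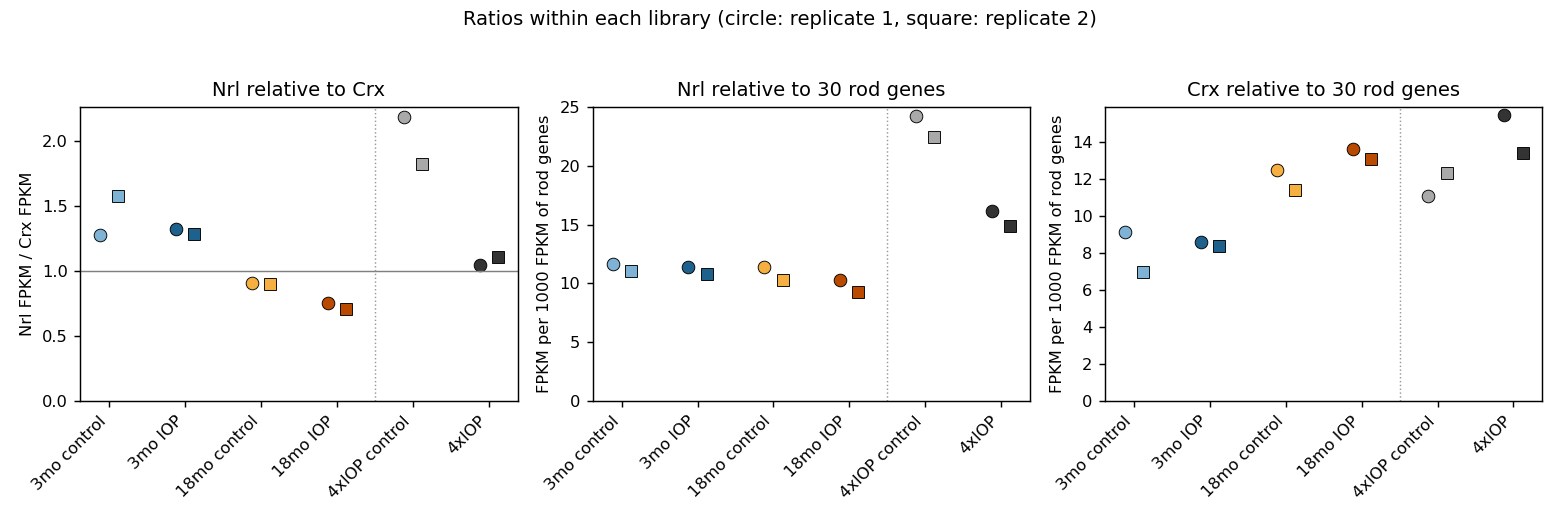
Ratios within each library on vertical axes that start at 0, by group, with circles for replicate 1 and squares for replicate 2. The left panel shows Nrl divided by Crx (grey line at 1), and the other panels show Nrl and Crx in FPKM per 1000 FPKM summed over 30 rod genes. Nrl divided by Crx lies above 1 in the 4 young libraries (1.28 to 1.58) and below 1 in the 4 old ones (0.710 to 0.911).

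Rod and cone genes, many of them activated by these factors, were read in the same libraries. Between control retinas 6 of 30 rod genes were called lower with age and none higher, where 11.6% of all genes were called in each direction, with a median of -0.32, and their summed level was 46409 to 62021 FPKM at 3 months and 30379 to 34229 FPKM at 18 months. Among the 4 most abundant, Sag (rod arrestin) had a log2 difference of -1.40 and Pdc (phosducin) of -1.34 (limma adjusted p = 0.0397 and 0.0390). Both were highest in 3mo control replicate 2, and without it they had -0.96 and -0.96 (adjusted p = 0.0753 and 0.0710), below both limits. With a library left out the rod median was -0.43 to -0.21. Rod genes were called in both directions without 3mo control replicate 1, and none without 18mo control replicate 1 or 2. The replicate block gave 1 rod gene called lower. Quantile normalization turned the direction, with 5 rod genes called higher, none lower and a median of 0.35. Between IOP eyes of the 2 ages 5 rod genes were called lower and none higher, with a median of -0.66. With any 1 library left out fewer were called lower, at medians of -0.80 to -0.58. The replicate block gave 1 called lower. Quantile normalization gave 3 called higher, none lower and a median of 0.02. Of 13 cone genes, 4 were called higher and none lower between controls, with a median of 0.39. Median-of-ratios size factors gave 2 called higher, and quantile normalization gave 5. With a library left out the median was 0.09 to 0.69, and without 3mo control replicate 1 cone genes were called in both directions. Between IOP eyes 1 cone gene was called higher and 1 lower (10.2% and 11.6% of all genes), with a median of -0.14. The opsin Opn1sw, which is sensitive to short wavelengths, was among those called higher between controls (1.07, limma adjusted p = 0.0496). It was not called there when any 1 library was left out. Opn1mw, the green-sensitive opsin, was not called between controls (0.04, limma adjusted p = 0.924). Of 20 other regulators of photoreceptors, 16 reached 0.5 FPKM in both control groups, and of these 5 were called higher and none lower, with a median of 0.55. Samd11, the partner of SAMD7, was one of these, from 104 ± 26.4 to 286 ± 39.3 FPKM (SD, n = 2, log2 difference 1.47, limma adjusted p = 0.00569). Mef2a and Mef2c, the relatives of Mef2d, were not (0.23 and 0.13, limma adjusted p = 0.310 and 0.642), nor were Rxrg, a cone nuclear receptor, and Ankrd33, a repressor in photoreceptors (0.20 and -0.03).

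Genes of other cell types differed in the same libraries. The mean level of 9 of 10 listed pigment epithelium markers was lower in old than in young retinas, in control and in IOP eyes, and their summed level was 176 to 497 FPKM in the 4 young and 2.19 to 10.05 FPKM in the 4 old libraries, where Tyr, Mlana and Slc45a2 were each at 0 in 1 library. No count of calls is given for them, since 5 in controls and 7 in IOP eyes reached 0.5 FPKM in the young group only. Of 7 ganglion cell markers, 6 reached 0.5 FPKM at both ages, and of these 5 were called lower in controls and 6 in IOP eyes (11.6% of all genes in each), with sums over the 7 of 311 to 624 FPKM in young and 30.3 to 84.2 FPKM in old retinas. Of 7 Muller glia markers, 3 were called higher in controls and 4 in IOP eyes (11.6% and 10.2% of all genes), with sums of 526 to 766 FPKM in young and 1132 to 1715 FPKM in old retinas. The mean of leukocyte and microglia markers was higher in old retinas for 8 of 10 in controls and 7 of 10 in IOP eyes, with sums of 25.9 to 117 FPKM in young and 71.3 to 210 FPKM in old retinas, and that of all 7 lens markers was lower in both, with sums of 8.67 to 25.2 and 2.10 to 13.1 FPKM. The part of these cells in the age differences of the 10 factors was not tested. In bulk tissue, fewer cells of a type and less RNA per cell cannot be told apart.

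The single-IOP comparisons asked what changed 2 days after a rise of pressure at each age. No factor was called by limma in 3mo IOP against 3mo control, where 0.575% of all genes were called, or in 18mo IOP against 18mo control, where 0.124% were. At an unadjusted p under 0.05 Rorb was the only factor in each (8.51% and 9.45% of all genes), and voom on the recovered reads called none either. The median of all genes was 0.13 and 0.09 on the log2 scale, and that of the 10 factors was 0.01 and -0.10. With median-of-ratios size factors the former became -0.04 and -0.02. Of 8 tested leukocyte and microglia markers none was called at either age, but their sum was 25.9 to 47.8 FPKM in 3mo control against 84.9 to 117 after IOP, and 71.3 to 81.5 in 18mo control against 116 to 210 after IOP. Pigment epithelium markers summed to 176 to 183 FPKM in 3mo control against 203 to 497 in 3mo IOP, with a higher mean in 7 of 10, and to 2.72 to 10.05 in 18mo control against 2.19 to 4.05 in 18mo IOP, with a lower mean in 8 of 10. Lens markers summed to 8.67 to 11.99 FPKM in 3mo control against 11.2 to 25.2 in 3mo IOP, with a higher mean in 6 of 7, and to 2.10 to 2.87 against 4.105 to 13.1 at 18 months, with a higher mean in all 7. Of 7 Muller glia markers 1 was called higher at each age and none lower. It was Gfap, a filament protein of reactive glia named after its values had been seen, with 2.10 and 2.13 against 25.0 and 31.3 FPKM at 3 months and 4.39 and 4.87 against 31.4 and 87.5 FPKM at 18 months (log2 differences 3.44 and 3.37, limma adjusted p = 0.0271 and 0.0443). Gfap lost its call at 18 months with a pseudocount of 0.1, median-of-ratios size factors, voom or the replicate block, where no gene was called. The same held without either 18mo control library, and at 3 months without replicate 1 of 3mo control or of 3mo IOP. Of the pigment epithelium markers at 0.5 FPKM or more in both groups, 1 of 8 was called higher at 3 months. The part of these cells in the differences of the factors, Rorb included, was not tested.

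RORB is an orphan nuclear receptor of photoreceptor precursors that also acts in amacrine and horizontal cells. At 3 months Rorb had 28.8 and 20.8 FPKM in control eyes against 15.7 and 14.5 after IOP. At 18 months it had 25.3 and 20.8 FPKM in control eyes against 17.0 and 15.0 after IOP. The IOP libraries were below the controls at both ages, without overlap. Such a separation downward was seen in 3.95% of all genes at 3 months and in 9.89% at 18 months. The log2 difference was -0.68 at 3 months (SE 0.20, limma adjusted p = 0.282) and -0.51 at 18 months (SE 0.20, limma adjusted p = 0.462). It stood at percentile 0.415 of all genes at 3 months and at percentile 1.43 at 18 months. Rorb had the lowest log2 difference of the 10 factors in both, and it stayed below 0 under every alternative tried. At 3 months leaving out 1 library gave -0.91 to -0.45, and without 3mo control replicate 2 it passed the adjusted p (-0.91, adjusted p = 0.0481), below 2-fold.

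No other factor had an unadjusted p under 0.05 in the single-IOP comparisons. Nrl overlapped at 3 months (-0.17) and was lower without overlap at 18 months (-0.46, SE 0.25, limma adjusted p = 0.756). Samd7 had 48.4 and 39.4 FPKM in control eyes against 49.0 and 52.6 after IOP at 3 months, and 53.5 and 41.3 against 49.4 and 104 at 18 months. Its log2 difference at 18 months, 0.60 (limma adjusted p = 0.735), was larger in size than that of Rorb, but the groups overlapped. The high value was in 18mo IOP replicate 2, the same library that had the highest Neurod1, Otx2 and Mef2d of the single-IOP table. At 3 months Samd7 and Neurod1 were higher without overlap (28.6% of all genes). At 18 months Prdm1 was lower without overlap besides Rorb and Nrl, where 9.89% of all genes were. In that comparison 21 of 30 rod genes and 9 of 13 cone genes were also lower without overlap, and 1 in each list was higher. The response to IOP did not pass a test of a difference between the ages for any factor. The interaction ran from -0.29 for Nrl to 0.39 for Samd7 (limma adjusted p = 0.9999 for each), where 0% of all genes passed the adjusted p. No factor had an unadjusted p under 0.05 there (1.59% of all genes), and voom called none.

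After repeated IOP the factors were mostly lower, and no factor passed both limits of the main test. Of all tested genes, 6.15% were called and 0.693% were called lower. At an unadjusted p under 0.05 there were 3 factors, Nrl, Rorb and Nr2e3 (15.4% of all genes), and voom on the recovered reads called Nrl. In 6 of the 10 factors both 4xIOP libraries were below both controls (Nrl, Nr2e3, Rorb, Crx, Prdm1 and Thrb), where 12.7% of all genes were lower without overlap, and Neurod1 was higher without overlap (27.7% of all genes). The median log2 difference of the 10 factors was -0.33, and that of all genes was 0.10, or -0.01 with median-of-ratios size factors.

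Nrl was the factor furthest from its control, with 470.4 and 451 FPKM in 4xIOP control and 154 and 210.4 FPKM in 4xIOP. Neither treated retina came near the controls. The log2 difference was -1.35 (SE 0.39, 0.392-fold), and it stood at percentile 0.328 of all genes. Its limma adjusted p of 0.0541 missed the limit. It was called in 6 of 10 other treatments of the data and in a crossed replicate block added after the data had been seen, with a log2 difference of -1.48 to -1.27 over these treatments. It was not called with either pseudocount (adjusted p = 0.0563 and 0.0550), with no filter (0.216), with the replicate block (0.101), or in 3 of the 4 fits that left out a library (adjusted p up to 0.999989). The target of NRL, Nr2e3, had 200.03 and 226 FPKM in the controls and 99.9 and 145 FPKM in 4xIOP (-0.82, SE 0.36, limma adjusted p = 0.281), which passed the adjusted p in 3 other treatments, namely median-of-ratios size factors, quantile normalization and voom (-0.94, -0.88 and -0.94, adjusted p = 0.0386, 0.00781 and 0.0146), but not in the remaining ones. Crx had 215 and 247 FPKM against 147 and 189 FPKM (-0.46, SE 0.36, limma adjusted p = 0.729). These 3 genes were lowest in 4xIOP replicate 1.

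Rorb had 25.1 and 30.1 FPKM in 4xIOP control and 14.0 and 18.1 FPKM in 4xIOP. As in the single-IOP table, the treated eyes were below the controls without overlap, with a log2 difference of -0.77 (SE 0.25, limma adjusted p = 0.103), and with those same 3 treatments it was -0.89, -0.88 and -0.91 (adjusted p = 0.0220, 0.0202 and 0.0159). It also passed in the crossed block (adjusted p = 0.0145), but in none of the other treatments or with a library left out. The repeated table shares no library with the single-IOP table. Prdm1, at 1.17 and 1.40 against 0.816 and 0.856 FPKM, and Thrb, at 8.66 and 9.36 against 7.61 and 7.455 FPKM, were lower by 0.42 and 0.24 on the log2 scale (limma adjusted p = 0.451 and 0.769). Neurod1 had 66.8 and 67.2 FPKM in the controls and 72.9 and 102 in 4xIOP (0.36, limma adjusted p = 0.776). Otx2, Mef2d and Samd7 overlapped, with log2 differences of -0.05, -0.05 and 0.01 and 95% intervals that reached -0.67 to 0.56, -0.61 to 0.51 and -0.54 to 0.55.

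Rod and cone genes were read in the same 4xIOP libraries. Of 30 rod genes 3 were called lower and none higher, where 0.693% of all genes were called lower and 5.45% higher, with a median of -0.77 (0 to 6 lower with a library left out, and 7 to 13 with median-of-ratios size factors, eBayes with no trend or voom), and their sum was 19380 to 20048 FPKM in the controls and 9515 to 14125 FPKM in 4xIOP. Of 13 cone genes 3 were called lower and 1 higher, with a median of -0.53, and Opn1mw was among the lower ones (-1.19, limma adjusted p = 0.0463), but not when any 1 library was left out. The one called higher was Gnb3, a subunit of cone transducin (1.76, limma adjusted p = 0.00575), named after its values had been seen. Sag, at 0.43 (limma adjusted p = 0.887), overlapped between the groups. Of 16 tested other regulators, 2 were called lower and none higher. They were Mef2c (-1.05, limma adjusted p = 0.0241) and Esrrb, an orphan receptor that supports rods (-1.38, limma adjusted p = 0.00293), the latter named after its values had been seen. Gnb3, Mef2c and Esrrb each lost the call without 4xIOP control replicate 1 and without replicate 2, and Mef2c also without 4xIOP replicate 1. Samd11, Ankrd33, Mef2a and Rxrg did not pass the test (-0.59, -0.56, 0.20 and -0.27).

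Markers of other cells moved with these differences. The mean level of 9 of 10 listed leukocyte and microglia markers was higher in 4xIOP, and their sum was 10.8 to 11.1 FPKM in the controls and 132 FPKM in both 4xIOP libraries, with Cd3e at 0 in 3 of the 4. All 7 listed lens markers had a higher mean, with sums of 0.616 to 2.96 against 31.2 to 75.8 FPKM, Mip being at 0 in 2 libraries and Lim2 in 1. Of 10 listed pigment epithelium markers 9 had a lower mean, with sums of 25.5 to 34.0 against 3.44 to 6.78 FPKM, Slc45a2 being at 0 in 2 libraries and Mlana in 1. Of 7 Muller glia markers 2 were called higher and none lower, with a median of 0.62 and sums of 840 to 896 FPKM in the controls against 650 to 764 in 4xIOP. Gfap was 1 of the 2 (3.76, limma adjusted p = 6.03e-07), while Glul, the glutamine synthetase that makes up most of this sum in the controls, had 579 to 592 against 249 to 292 FPKM (-1.12, limma adjusted p = 0.151). No count of calls is given for the first 3 lists, since 2 leukocyte, 5 lens and 3 pigment epithelium markers reached 0.5 FPKM only in the group where they were higher. Their part in the lower level of Nrl, Rorb and the other factors was not tested.

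**Figure D4:**
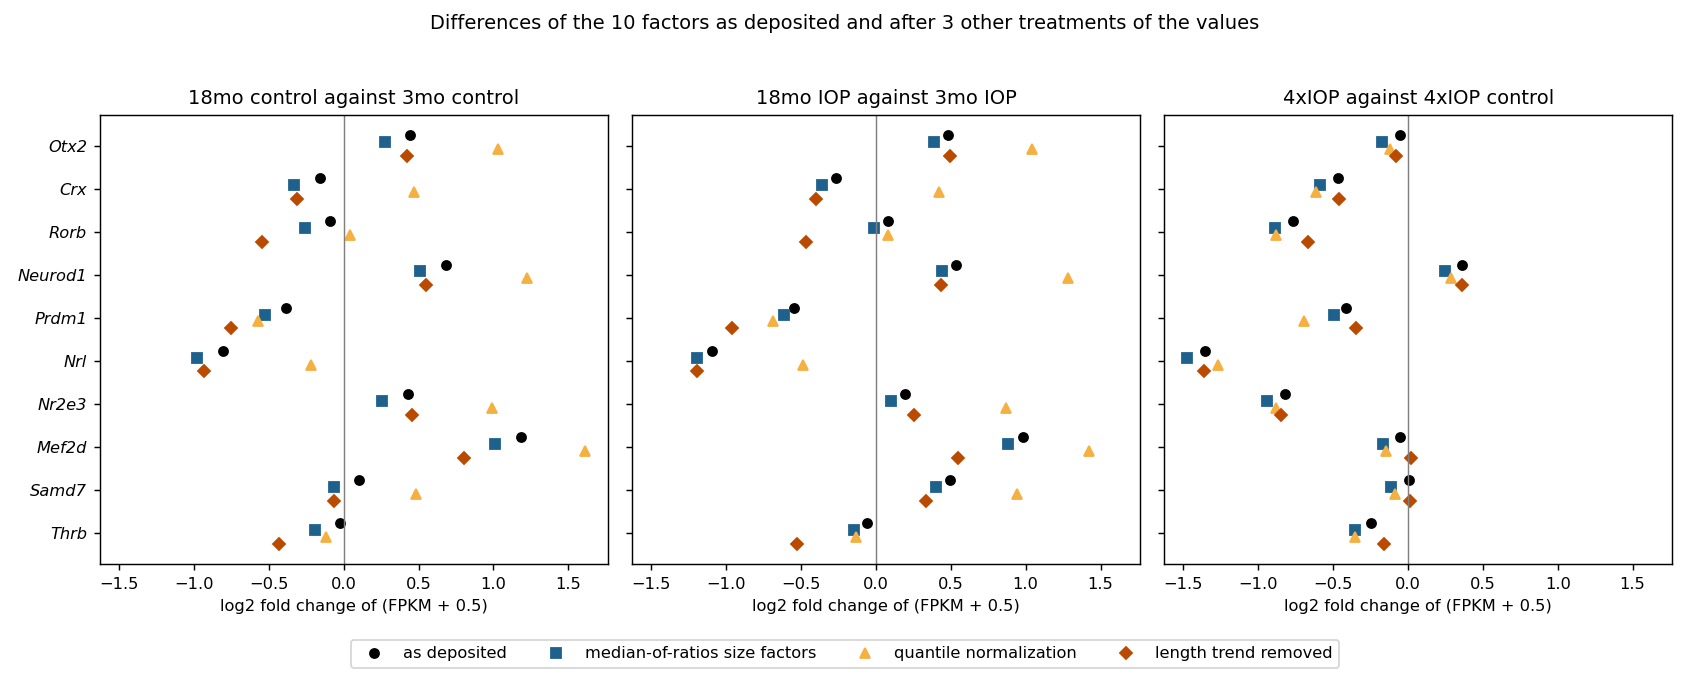
Log2 fold change of (FPKM + 0.5) on the horizontal axis for each factor (rows) in both age comparisons and the repeated-IOP comparison (panels), from the values as deposited and after 3 other treatments. Nrl is below 0 and Mef2d with age above 0 in every treatment, Crx changes sign with age under quantile normalization, and Mef2d with age drops from 1.18 to 0.80 in controls when the length trend is removed.

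The profiles over the 8 single-IOP libraries were compared with those of 13730 other tested genes, each centred on its own mean of log2(FPKM + 0.5), by the root mean square difference. The nearest genes to Nrl were Nmbr (0.10), Gnb1 (0.10), which encodes the beta subunit of rod transducin, and Rtbdn (0.10). Nearest to Crx were Zfp41, Tcaim and Stard7 (each 0.06), and to Nr2e3 Arntl (0.05), Ttc25 (0.06) and Pex5l (0.07). Thrb lay nearest to Rif1, Smchd1 and Ythdf3 (each 0.05), and its own profile varied little. The difference between Nrl and Crx was 0.40, which put Crx at rank 2364 of 13730 in nearness to Nrl.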

How the data were processed

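RNA was isolated in TRIzol from fresh retinas, and strand-specific poly(A) libraries were sequenced. The authors aligned reads to mm10 with STAR 2.7.8a and counted uniquely mapped tags in exons with HOMER, 1 isoform per locus. The deposited values are FPKM, scaled to the tags of each library, in 2 tables that were made separately. The authors' own tests used DESeq2 1.24.0.

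FPKM times transcript length steps in whole reads, so tags per library were recovered (100% of the values checked came to whole reads within 0.1 reads), and 44.2% to 71.5% of tags lay in exons. Genes averaging 0.5 FPKM or more were tested as log2(FPKM + 0.5) with limma 3.58.1 (R 4.3.3), lmFit and eBayes with a trend: 13731 genes in 4 groups (residual degrees of freedom 4, prior 4.12) and 13718 genes in the repeated table (2 and 10.6). Fold changes on this scale understate the change of low genes. The steps were tested on simulated data. With 2 libraries per group the median SE was 0.23, and no permutation of libraries can give a small p.

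The 10 factors and the gene lists were chosen with earlier results of these data known. All 10 factors are named, and of the other lists the 4 most abundant members where called or discussed, plus Opn1sw, Opn1mw, Mef2a, Mef2c, Rxrg, Samd11 and Ankrd33. Genes that overlap a factor and markers at 0 are also named. Some genes are not reported here. Nearest genes are given for Crx, Nrl, Nr2e3 and Thrb. Other genes are said to have been chosen after their values were seen.

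Alternatives were pseudocounts of 0.1 and 1, no filter and one at 2 FPKM, quantile normalization, median-of-ratios size factors, eBayes with no trend, voom on the recovered reads, removal of the trend with transcript length (a spline with 5 degrees of freedom), a replicate block, the adjusted p alone, the 2 compared groups alone, and each library left out in turn. A block with crossed replicate numbers was added after seeing the data. Other assays of the study were not analysed here.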

Additional observations from a re-analysis of the deposited data

How the results depend on the processing

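Counts of called factors in the single-IOP comparisons and the interaction were 0 in every alternative. Between controls of the 2 ages the count of 1 became 3 with quantile normalization (Mef2d, Otx2 and Neurod1), 0 with the length trend removed, 2 by the adjusted p alone and 0 to 1 with a library left out. Between IOP eyes of the 2 ages the count of 1 became 3 with quantile normalization (the same genes, without Nrl), 2 by the adjusted p alone and 0 to 2 with a library left out, the 2 being Mef2d and Samd7 without 18mo IOP replicate 1. For 4xIOP the count of 0 became 1, Nrl, with a filter at 2 FPKM, quantile normalization, median-of-ratios size factors, eBayes with no trend, the length trend removed, voom and the crossed block, and was 0 to 1 with a library left out (1 without 4xIOP replicate 2). The cause was not tested. Where a library was left out, the lone one was assumed to vary like the other groups.

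Of 974 values of single genes under the alternatives, 949 kept their side of the limits, 10 lost and 15 gained a call, and no call changed direction. Of the 60 differences of the 10 factors, 33 changed sign under some alternative, and none of these 33 was called in the main test.

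The replicate numbers are shared across groups, the labels do not say that they mark animals, and deviations of same-numbered libraries correlated at -0.28 (3 months), -0.53 (18 months) and -0.29 (repeated) over genes. With the replicate block 1 factor was called with age in controls, 0 in IOP eyes (Nrl, adjusted p = 0.0744) and 0 for 4xIOP. All genes called went from 79 to 20 at 3 months, from 17 to 0 at 18 months and from 843 to 864 for 4xIOP, and crossing the numbers gave 312, 306 and 894.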

Other observations

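Factors of bipolar and inner retinal neurons, some of which share Otx2 and Neurod1 with photoreceptors, were measured in the same libraries. Of 18 such factors, 17 reached 0.5 FPKM at both ages. Of these 4 were called higher with age in control eyes and none lower, where 11.6% of all genes were called higher. The median log2 difference of the 17 was 0.58. Over all 18 it was 0.33, with 10 rising and 8 falling. Neurod4, Pax6 and Isl1, which were among the most abundant of these factors, were not called. After repeated IOP none of the 18 was called by limma (6.15% of all genes) and none had an unadjusted p under 0.05, with a median of -0.01, beside -0.33 for the photoreceptor factors. Of 10 bipolar cell markers 5 were called higher and none lower with age in control eyes (11.6% of all genes higher), with a median of 0.87. None of the 10 was called after repeated IOP.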
